A study of Mus musculus with 12 samples.

Results

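Cathepsins are proteases that work mainly inside lysosomes, and 8 of them were examined in mouse muscle together with legumain (Lgmn), the asparaginyl endopeptidase that trims several cathepsins to their mature forms, and cystatin C (Cst3), a secreted inhibitor of cysteine cathepsins. The 10 genes Ctss, Ctsc, Ctsh, Ctsz, Ctsb, Ctsd, Ctsl, Ctsk, Lgmn and Cst3 were taken by symbol. For each, the probe set was chosen by its mean over all arrays, the highest standing for the gene. The genes themselves were named with earlier results of these data known. All 10 were among the 11345 genes tested, and 20 probe sets carried their symbols.

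Cathepsins are made as inactive precursors, are carried to the acidic lysosome by mannose-6-phosphate receptors and are activated there. Some, such as cathepsins B, D and L, are present in nearly every cell type. Cathepsin S is made chiefly by antigen-presenting cells and macrophages, where it cleaves the invariant chain from class II molecules, and cathepsin C activates the granule proteases of leukocytes. In muscle fibres lysosomal proteolysis contributes to protein turnover.

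The muscle samples came from mice aged 16 weeks, of mixed 129/Sv and C57BL/6 background, with 3 mice in each of 4 groups. Wild-type (WT) mice and mice lacking GPR120, the fatty acid receptor encoded by Ffar4 (KO), were each fed a normal diet (ND) or a high fat diet (HFD). The comparisons ask how each diet and genotype changed the lysosomal proteases and whether the effect of the diet depended on the receptor. The labels do not name the muscle, the cells the deletion covers or the length of feeding.

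All values are log2 array signals, so a difference of 1 is a doubling. A gene was called at an adjusted p under 0.05 (limma, Benjamini-Hochberg over all 11345 genes). The knockout could not be checked here: the single Ffar4 probe set averaged 1.61, below the filter at 3.78, with group means of 0.23 in WT ND, 1.41 in WT HFD, 2.48 in KO ND and 2.31 in KO HFD. The muscle label was borne out by Acta1, skeletal actin, and Ckm, muscle creatine kinase, which lay between 13.5 and 13.8 and between 13.3 and 13.8 on the 12 arrays. The mice of a group were numbered in a range of their own, so an effect of cohort or litter and one of group cannot be told apart. The 3′ over 5′ signal ratio of the control transcripts, a measure of RNA quality, ran from -0.08 to 0.09 (log2) in WT ND, 0.16 to 0.20 in WT HFD, 0.01 to 0.12 in KO ND and 0.02 to 0.28 in KO HFD. Signals of different genes come from different probe sets, and their levels are not compared.

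RefSeq promoters of 300 bases (GRCm38.p6, 250 before the start and 50 from it) were held for 8 of the 10 genes. Both strands were searched for CACGTG, the core E-box, for TCACGTGA, the longer E-box of lysosomal genes bound by TFEB, which overlaps the first, for GAGGAAGT, a core of sites bound by the leukocyte factor PU.1, and for TTCNNNGAA, the STAT-binding GAS element. The stretches below are shown because each holds a match to the PU.1 core or to an E-box, with the match in capitals and 5′ to 3′ on the gene's strand.
Ctss (chr3:95526732-95526791, plus strand): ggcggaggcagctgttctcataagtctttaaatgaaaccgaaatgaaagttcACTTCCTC
Ctsc (chr7:88277908-88277967, plus strand): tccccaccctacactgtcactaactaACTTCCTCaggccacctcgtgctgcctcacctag
Ctsd (chr7:142387893-142387952, minus strand): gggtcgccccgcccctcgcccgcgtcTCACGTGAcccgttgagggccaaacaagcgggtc
Lgmn (chr12:102439110-102439169, minus strand): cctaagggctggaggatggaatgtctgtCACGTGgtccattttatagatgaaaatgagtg
Ctsl (chr13:64370725-64370770, minus strand): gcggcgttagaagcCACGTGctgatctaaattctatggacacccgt
The PU.1 core stood on the opposite strand in Ctss, beginning at -2 and running over the start, and in Ctsc at -151. It was found in 3.2% of 32851 promoters of this length, and for 3.69% of the 27025 genes they belong to. The core E-box was found in Ctsd, Ctsl and 1 of the promoters of Lgmn, against 7.15% of all promoters and 8.09% of genes. The longer form was found in Ctsd alone of the 8, against 0.974% of promoters and 1.12% of genes. A further core E-box of Ctsd, at -245, lies outside the stretch shown. The GAS element was found in Ctsc, against 8.3% of promoters and 9.55% of genes. The promoters of Ctsz, Ctsk and Cst3 held none of the 4. These are matches of letters and no measure of binding.

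Cathepsin S showed the largest difference of the 10 genes, a rise with the high fat diet in KO mice that was not seen in WT mice. Its signals were 8.37, 8.40 and 8.56 in WT ND, 8.25, 8.49 and 8.26 in WT HFD, 7.82, 7.38 and 7.61 in KO ND, and 9.95, 9.29 and 9.31 in KO HFD. The 3 KO HFD mice lay above all others and the 3 KO ND mice below all others, while the values of the WT groups overlapped.
Group means were 8.44 ± 0.10 (SD, n = 3) in WT ND, 8.33 ± 0.13 in WT HFD, 7.60 ± 0.22 in KO ND and 9.52 ± 0.38 in KO HFD. In order of level KO HFD came first, then the WT groups, which did not differ beyond their spread, and KO ND last.

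In KO mice Ctss rose with the high fat diet by 1.92 (SE 0.17, 95% interval 1.55 to 2.28), which is 3.78-fold, with an adjusted p of 0.000192 in limma. It ranked at place 2 of 11345 genes by p. The rise was 1.84 (adjusted p = 0.00187) with the 3′ over 5′ ratio in the fit, and 1.70 (0.000136) without KO HFD replicate 1, the highest mouse. In WT mice the difference was -0.11 (SE 0.17, adjusted p = 0.762). The diet effect differed between the genotypes by 2.03 (SE 0.24, adjusted p = 0.00602 for the interaction in limma). This was 1 of 16 genes called for the interaction, 0.141% of those tested, and it too ranked at place 2.

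Between genotypes the difference in Ctss had opposite signs on the 2 diets. On the high fat diet Ctss was higher in KO by 1.19 (SE 0.17, 2.27-fold, limma adjusted p = 0.00753), a call that was lost with no intensity trend (adjusted p = 0.0601). On the normal diet the KO values were lower in the mean (-0.84, SE 0.17), with an adjusted p of 0.0542 in limma, which did not pass. That value passed when the fit held only the groups compared (adjusted p = 0.0429), with array weights (0.0245), with a stricter signal filter (0.0495) or without KO HFD replicate 1 (0.0187). The comparisons share the KO HFD or the KO ND arrays and are not independent of one another.

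**Figure D1:**
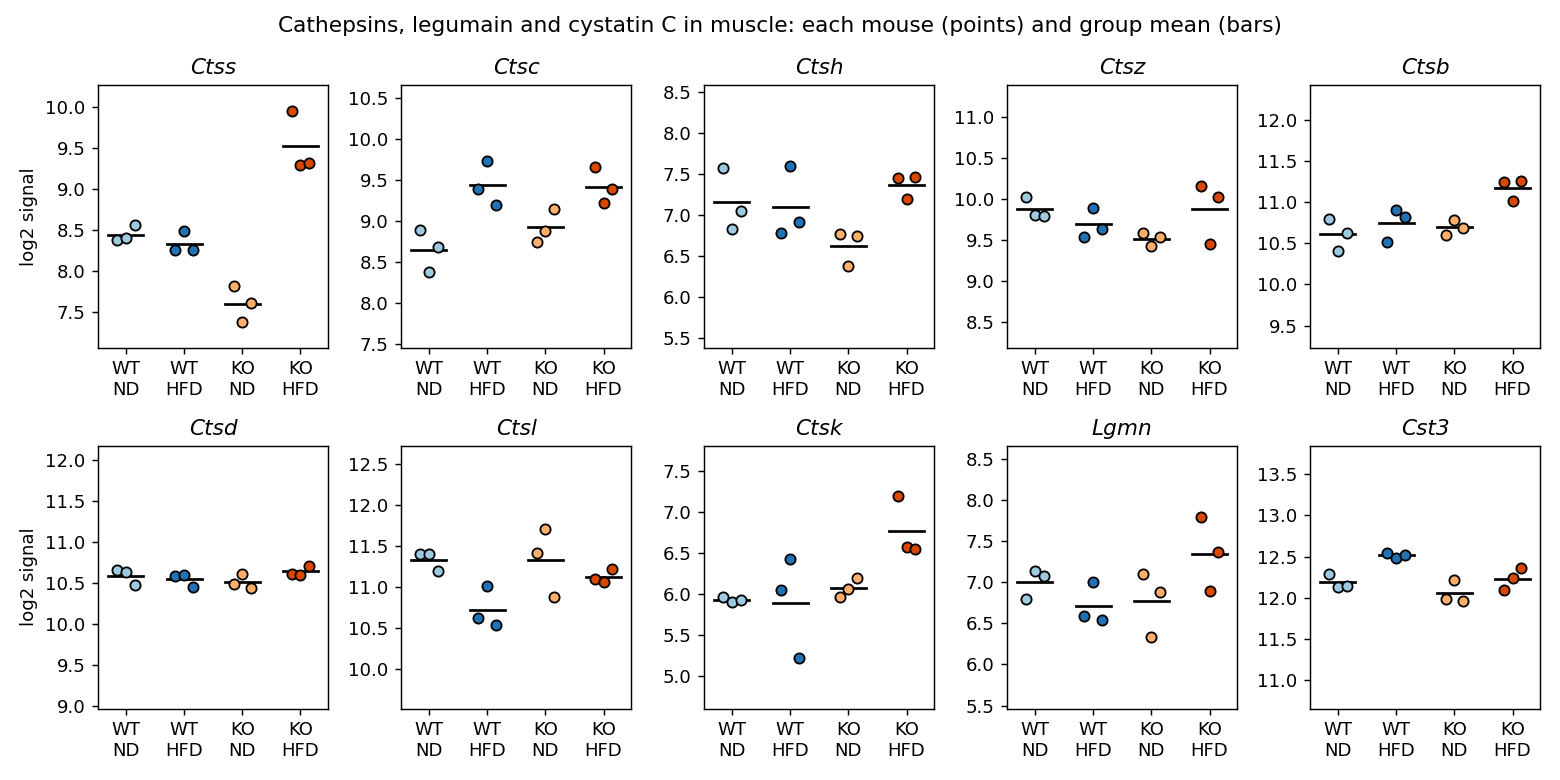
Log2 signal (y axis) of each mouse (points) and group mean (bars) for the 10 genes in the 4 groups (x axis), with every panel spanning the same range of log2 units. In the Ctss panel the KO HFD mice lie from 9.29 to 9.95 and the KO ND mice from 7.38 to 7.82, on either side of the WT mice.

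Cathepsin C, the dipeptidyl peptidase that activates serine proteases of mast cells, neutrophils and cytotoxic lymphocytes, rose with the diet in WT. It read 8.90, 8.38 and 8.69 in WT ND, 9.40, 9.74 and 9.20 in WT HFD, 8.75, 8.88 and 9.15 in KO ND, and 9.66, 9.22 and 9.39 in KO HFD. All 6 mice on the high fat diet lay above all 6 on the normal diet, as for 2.58% of all genes. The rise in WT was 0.79 (SE 0.17, 1.73-fold, limma adjusted p = 0.0185), and the difference in KO was 0.49 (SE 0.17, adjusted p = 0.120). Averaged over genotypes Ctsc rose by 0.64 (SE 0.12, adjusted p = 0.00444). The diet effects of the genotypes were not shown to differ (interaction -0.29, 95% interval -0.82 to 0.23, limma adjusted p = 0.709). The other Ctsc probe sets gave diet differences of 0.78 and 0.85 in WT, and of 0.85 and 0.08 in KO. With a term for the 3′ over 5′ ratio in the fit, neither the WT nor the averaged diet effect passed (adjusted p = 0.143 and 0.0721), and the WT effect also missed without WT ND replicate 2 (0.0864), WT ND replicate 3 (0.0563) or WT HFD replicate 2 (0.0711).

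Cathepsin H, an aminopeptidase of the same family, read 7.58, 6.83 and 7.05 in WT ND, 6.77, 7.59 and 6.92 in WT HFD, 6.76, 6.37 and 6.74 in KO ND, and 7.46, 7.19 and 7.46 in KO HFD. The KO groups did not overlap, and the WT groups did. The diet difference in KO was 0.74 (SE 0.23, limma adjusted p = 0.0823), against -0.06 in WT, and the interaction of 0.80 did not pass (adjusted p = 0.404). The KO difference passed with array weights (adjusted p = 0.0423), with only the groups compared (0.0309) and without WT HFD replicate 2 (0.0447). The other probe set of Ctsh, with a mean of 6.40 against 7.06 for the one used, gave diet differences of 0.59 in WT and 0.86 in KO. Its interaction was 0.27. For KO against WT on the normal diet it gave 0.06, against -0.53 for the one used.

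Cathepsin Z, a carboxypeptidase prominent in myeloid cells, had group means of 9.88 ± 0.13 (SD, n = 3) in WT ND, 9.69 ± 0.18 in WT HFD, 9.52 ± 0.08 in KO ND and 9.88 ± 0.37 in KO HFD. In KO HFD 2 mice read 10.15 and 10.03 and replicate 2 read 9.45, within the range of KO ND. The diet difference in KO was 0.36 (SE 0.16, limma adjusted p = 0.218), and it was 0.58 (adjusted p = 0.0305) without KO HFD replicate 2 and 0.23 (not called) without KO HFD replicate 1. The other probe sets of Ctsz gave 0.35 and 0.47 in KO.

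Among the ubiquitous cathepsins, only Ctsb was called in a diet comparison within a genotype. Cathepsin B, a lysosomal endopeptidase and carboxypeptidase, read 10.80, 10.40 and 10.63 in WT ND, 10.52, 10.90 and 10.82 in WT HFD, 10.60, 10.79 and 10.69 in KO ND, and 11.25, 11.01 and 11.25 in KO HFD. Every KO HFD mouse was above every other mouse. Ctsb rose in KO by 0.48 (SE 0.12, 1.39-fold, limma adjusted p = 0.0448), with 0.14 in WT (adjusted p = 0.545) and no call for the interaction (0.34, 95% interval -0.03 to 0.71, adjusted p = 0.516). The KO call was near the threshold and was lost in 13 of 24 alternative settings, among them median centring of the arrays (0.36, adjusted p = 0.189), though the sign held in each. With the mean over all Ctsb probe sets, which takes in the one below the filter, the calls changed places: the diet difference was 0.71 in WT (adjusted p = 0.0363) and 0.52 in KO (0.144). The 3 other probe sets of Ctsb above the filter gave 0.35, 0.26 and 0.62 in KO.

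Cathepsin D, the main aspartic protease of lysosomes, was the steadiest of the 10 genes. Its 12 values lay between 10.43 and 10.71, and its diet differences were -0.04 in WT (95% interval -0.22 to 0.14) and 0.13 in KO (-0.05 to 0.31). On the high fat diet the KO mice lay just above the WT mice, at 10.60 to 10.71 against 10.46 to 10.60, a difference of 0.10 that did not pass (limma adjusted p = 0.642).

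Cathepsin L, an endopeptidase that is induced in wasting muscle, went the other way. It read 11.40, 11.40 and 11.20 in WT ND, 10.61, 11.01 and 10.53 in WT HFD, 11.41, 11.71 and 10.87 in KO ND, and 11.09, 11.05 and 11.21 in KO HFD. The WT HFD mice lay below all WT ND mice, and the KO groups overlapped. The difference in WT was -0.61 (SE 0.17, limma adjusted p = 0.0551), and in KO it was -0.21 (adjusted p = 0.545). Averaged over genotypes Ctsl fell by 0.41 (SE 0.12, adjusted p = 0.0419), a call that was lost in 16 of 23 alternatives. Its second probe set, with a mean of 4.57 against 11.12 for the one used, gave 0.10 for the averaged effect.

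Cathepsin K, the collagen-degrading cathepsin of osteoclasts and fibroblasts, had group means of 5.93 ± 0.03 (SD, n = 3) in WT ND, 5.89 ± 0.62 in WT HFD, 6.07 ± 0.12 in KO ND and 6.77 ± 0.37 in KO HFD. The 3 KO HFD mice, at 7.19, 6.56 and 6.54, were above every other mouse. The difference from KO ND was 0.70 (limma adjusted p = 0.156) and that from WT HFD was 0.87 (adjusted p = 0.132), and neither passed. WT HFD spread from 5.21 to 6.42, and the genotype difference was 1.14 (limma adjusted p = 0.0411) without its replicate 2 and 0.54 (not called) without its replicate 3.

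Legumain and cystatin C differed in pattern. Lgmn read 6.80, 7.14 and 7.07 in WT ND, 6.59, 6.999 and 6.54 in WT HFD, 7.10, 6.34 and 6.88 in KO ND, and 7.79, 6.89 and 7.36 in KO HFD, and no pair of groups was called. Its diet difference was 0.58 in KO (SE 0.24, limma adjusted p = 0.195) and -0.29 in WT, with overlapping values in each. Cst3 read 12.29, 12.12 and 12.14 in WT ND, 12.54, 12.48 and 12.52 in WT HFD, 11.99, 12.21 and 11.96 in KO ND, and 12.09, 12.24 and 12.35 in KO HFD. The WT HFD mice were above all others. Cst3 rose with the diet in WT by 0.33 (SE 0.09, 1.25-fold, limma adjusted p = 0.0441), a call lost in 14 of 23 alternatives. Under high fat feeding its KO minus WT difference was -0.28 (adjusted p = 0.140), without overlap of the values, and the interaction of -0.15 did not pass (adjusted p = 0.713).

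**Figure D2:**
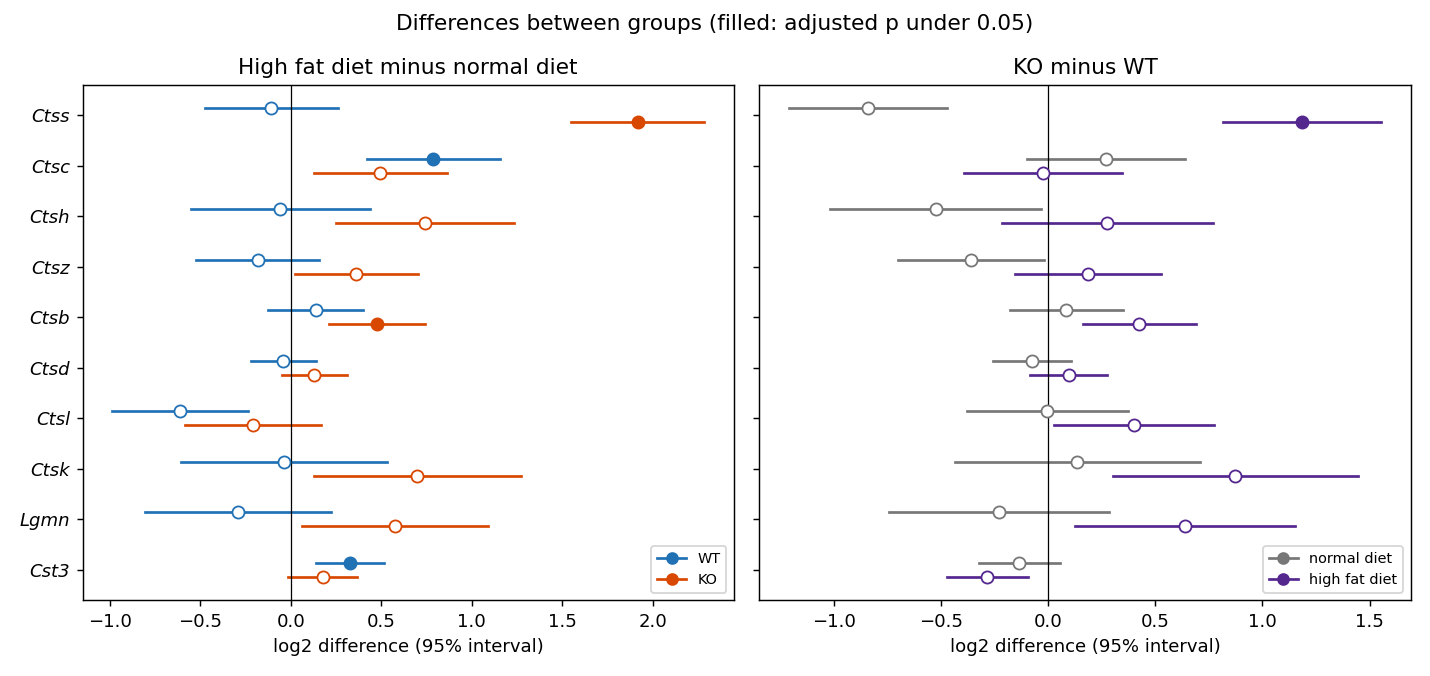
Log2 differences (x axis) with 95% intervals for the 10 genes (y axis), on the left between diets within each genotype and on the right between genotypes on each diet, with filled points where the adjusted p was under 0.05. Ctss stands apart at 1.92 for the diet in KO and 1.19 for KO against WT on the high fat diet.

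Counted together, 2 of the 10 genes rose with the diet in WT (Ctsc and Cst3) and none fell. Of all genes 6.06% were called in that comparison, 3.07% as higher. In KO 2 rose (Ctss and Ctsb) and none fell, where 4.54% of all genes were called and 2.66% as higher. The median difference of the 10 was -0.05 in WT and 0.49 in KO, beside 0.04 and 0.05 over all genes. Values of the diet groups did not overlap for 5 of the 10 in KO, all higher (Ctss, Ctsb, Ctsc, Ctsh and Ctsk), where 16.3% of all genes were higher without overlap. In WT 2 were higher (Ctsc and Cst3), against 15.7%, and 1 was lower (Ctsl), against 11.1%.

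Between genotypes 1 of the 10 was called when both ate the high fat diet (Ctss, higher in KO), where 0.732% of all genes were called and 0.511% as higher. On the normal diet none was called in limma, where 0.414% of all genes were, and 3 had an unadjusted p under 0.05 (Ctss, Ctsh and Ctsz), where 11.3% did. Those 3 were lower in KO without overlap, where 7.72% of all genes were. Among mice fed the high fat diet 5 of the 10 were higher in KO without overlap (Ctss, Ctsb, Ctsd, Ctsk and Ctsl), where 11% of all genes were, and Cst3 was lower, where 8.39% were. Averaged over genotypes 4 rose with the diet (Ctss, Ctsb, Ctsc and Cst3) and Ctsl fell, where 13.7% of all genes were called, 7.49% as higher and 6.19% as lower.

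The proteases typical of immune cells (Ctss, Ctsc, Ctsh and Ctsz) and the ubiquitous ones (Ctsb, Ctsd and Ctsl) were then set side by side by their medians. With the diet in KO the median difference was 0.62 for the immune-cell proteases and 0.13 for the ubiquitous ones, and in WT it was -0.08 and -0.04. For KO against WT on the normal diet it was -0.44 and -0.00, and on the high fat diet 0.23 and 0.40. The gap between the medians, immune-cell minus ubiquitous, was 0.49 for the diet in KO. For the genotype on the high fat diet it was -0.17, from -0.24 to -0.05 with 1 mouse left out, and it turned to 0.18 when the immune-cell set was narrowed to Ctss and Ctsc.
The immune-cell set was not uniform. Ctss and Ctsc, to which the set was narrowed, gave KO diet differences of 1.92 and 0.49, and WT differences of -0.11 and 0.79. Ctsc thus had its call in the genotype in which Ctss had none, and the interaction was called for Ctss alone of the 10. The diet effects on Ctsc were not shown to differ between the genotypes (interaction -0.29, limma adjusted p = 0.709). With the second brightest probe sets, which leave out Ctss and Ctsd, the immune-cell minus ubiquitous gap for KO against WT on the normal diet changed sign, from -0.44 to 0.061, and that for the interaction went from 0.33 to -0.015.

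The genes most like Ctss over the 12 arrays by Pearson correlation were Saa3 (r = 0.954), an acute phase protein, Adgre1 (0.944), which encodes the macrophage antigen F4/80, Fyn (0.937), a Src family kinase, Lsp1 (0.931), a leukocyte actin-binding protein, and Sfrp5 (0.931), a secreted antagonist of Wnt. Those most like Ctsb were Tmsb4x (0.947), an actin-sequestering peptide, Olfml2b (0.940), Itm2c (0.937), Cyba (0.929), a subunit of the phagocyte oxidase, and Col1a2 (0.929), a chain of type I collagen. After the group means were taken out, r fell to between 0.451 and 0.773 for the genes of Ctss and stayed between 0.799 and 0.915 for those of Ctsb. The 12 points share the 4 group means, and the genes were chosen as the most alike of all tested, so the values are a description.

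Part of the macrophage markers rose with the diet in KO, as Ctss did. Of 17 macrophage markers above the filter, 6 rose with the diet in KO, beside 2.66% of all genes. Among the 6 were Lgals3, the lectin galectin-3 (2.45, limma adjusted p = 0.00197), Mpeg1, a pore-forming protein (1.89, 0.00456), Tyrobp, a signalling adaptor (1.64, 0.00199), Adgre1 (1.11, 0.00197) and Lyz2, lysozyme (1.07, 0.0351). Cd68, the lysosomal glycoprotein of macrophages, gave 0.99 (adjusted p = 0.177) and Csf1r, their growth factor receptor, 0.69 (0.155). Unlike Ctss, Cd68 was lower in WT HFD (6.16 to 6.84) than in WT ND (7.32 to 8.43), without overlap. On the normal diet both overlapped between genotypes. Cd68 read 7.32 to 8.18 in KO ND, and Csf1r read 9.88 to 10.41 in KO ND and 9.95 to 10.29 in WT ND. The median of the 17 was 0.84 in KO and -0.35 in WT, where limma called none of them and 1 had an unadjusted p under 0.05, beside 23% of all genes.
On the normal diet 10 of the 17 were lower in KO without overlap, beside 7.72% of all genes. There limma called none, beside 0.414% of all genes, and 9 had an unadjusted p under 0.05, beside 11.3%. Under high fat feeding 4 of the 17 were called as higher in KO, beside 0.511% of all genes. These were Cd68 (2.10, limma adjusted p = 0.0311), Lgals3 (2.28, 0.00539), Mpeg1 (1.61, 0.0311) and Tyrobp (1.13, 0.0306). For the interaction Lgals3 was called (3.06, limma adjusted p = 0.0179), beside 0.141% of all genes. All 17 interaction differences were positive, beside 5824 of 11345 over all genes.
The summed linear signal of the 17 ran from 4711 to 5269 in WT ND, 2842 to 5890 in WT HFD, 3259 to 4385 in KO ND and 5537 to 9563 in KO HFD. The markers Aif1 and Itgam were not among the genes tested. In whole muscle a larger number of cells of a type and more RNA per cell cannot be told apart, and the part of the macrophage markers in the difference in Ctss was not tested.

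**Figure D3:**
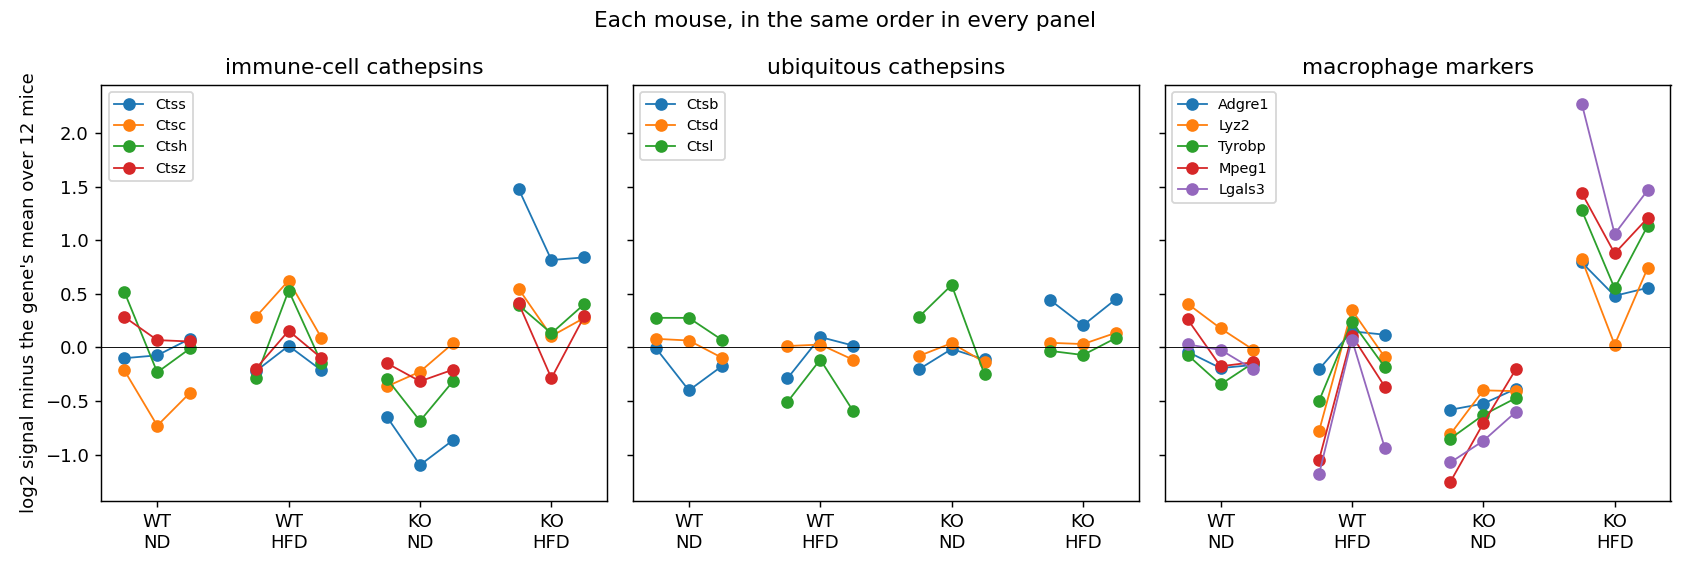
Log2 signal minus the gene's own mean over the 12 mice (y axis) for each mouse (points joined within a group) in the 4 groups (x axis), for the immune-cell cathepsins, the ubiquitous cathepsins and 5 macrophage markers. The KO HFD mice are the highest for Ctss and for the 5 macrophage markers by group mean, while Ctsd stays near 0 throughout. The 5 markers drawn are among the 6 of 17 called for the diet in KO, so their rise there follows from the choice. Cd68 and Csf1r, which were not called, are not drawn.

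Markers of other cell types were read the same way. Of 9 fibroblast markers, 3 rose with the diet in KO, the collagen genes Col3a1 (1.24, limma adjusted p = 0.0166), Col1a1 (0.87, 0.0423) and Col1a2 (0.73, 0.0473), and 1 in WT, Thy1. Of all genes 2.66% were called as higher in KO and 3.07% in WT. The median of the 9 was 0.73 in KO and 0.11 in WT. In KO 6 of the 9 fibroblast markers had an unadjusted p under 0.05, beside 19.9% of all genes. Their summed linear signal ran from 9572 to 10970 in WT ND, 8312 to 12192 in WT HFD, 10425 to 11240 in KO ND and 13204 to 17820 in KO HFD. Of 8 adipocyte markers 1 rose in KO (Fabp4). All 8 differences were positive there, beside 6518 of 11345 over all genes. Their median was 0.77, and by limma 5 had an unadjusted p under 0.05, beside 19.9% of all genes. The median of the 8 in WT was 0.08. Their sum ran from 20922.5 to 22755.2 in WT ND, 22406.6 to 29714.7 in WT HFD, 20445 to 24723 in KO ND and 29313 to 30151 in KO HFD. The ranges of WT HFD and KO HFD overlapped. Such sums, here and for the other lists, weigh the brightest probe sets most, and the share of each gene was not examined.
No marker was called for the diet in KO among 3 dendritic cell, 4 neutrophil, 4 mast cell, 4 osteoclast, 8 endothelial and 12 skeletal muscle genes above the filter. By limma 6 of these 35 had an unadjusted p under 0.05, beside 19.9% of all genes. None of 11 lymphocyte markers was above the filter. The skeletal muscle sum ran from 128763 to 157329 in KO ND and from 145498 to 157558 in KO HFD. The part of fibroblasts or adipocytes in the cathepsin differences was not tested.

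Around the cathepsins, the other lysosomal hydrolases rose with the diet in KO in larger number than in WT, and limma called the interaction for none of them (11 of 32 had an unadjusted p under 0.05, beside 10.4% of all genes). Of 32 hydrolases and cofactors above the filter, 6 rose in KO, beside 2.66% of all genes, and none fell, and the median was 0.37. The leading ones were Gusb, beta-glucuronidase (1.37, limma adjusted p = 0.0149), Npc2, which hands cholesterol out of the lysosome (0.84, 0.00746), Gm2a, the GM2 activator (0.75, 0.00856), and Scpep1, a carboxypeptidase (0.72, 0.0212). In WT 1 rose, Hexa (0.45, 0.0392), a subunit of beta-hexosaminidase, and 1 fell, Ifi30 (-0.53, 0.0404), the lysosomal thiol reductase, and the median was 0.01. Hexa and Ifi30 were also among the 6 that rose in KO. Of all genes 3.07% were called as higher in WT and 2.99% as lower. Under high fat feeding Npc2 (0.72, limma adjusted p = 0.0406) and Scpep1 (0.74, 0.0433) were higher in KO, and on the normal diet Ifi30 was lower (-0.78, 0.0288). Beside them, 0.511% of all genes were called as higher on the high fat diet and 0.123% as lower on the normal diet.

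Of 27 genes of the lysosomal membrane and proton pump, 2 rose with the diet in KO, Mfsd8 (0.58, limma adjusted p = 0.0324) and the membrane glycoprotein Lamp1 (0.27, 0.0431), and 1 fell, Atp6v1h (-0.60, 0.0464), a subunit of the proton pump. The median of the 27 was 0.09. Of all genes 2.66% were called as higher and 1.88% as lower in KO, and 3.07% and 2.99% in WT. In WT Laptm4b rose (0.59, 0.0138), and Npc1, the cholesterol exporter (-1.08, 0.00658), and Atp6v1h (-0.65, 0.0270) fell. Of 12 sorting genes, Grn, progranulin (0.67, 0.0380), and Sort1, sortilin (0.52, 0.0294), rose in KO, and limma called none in WT, where none had an unadjusted p under 0.05, beside 23% of all genes.

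Beside 2.66% of all genes, 1 of 5 other protease inhibitors above the filter rose in KO. This was Cstb, the intracellular cysteine protease inhibitor stefin B (0.66, SE 0.11, limma adjusted p = 0.00603), with -0.22 in WT (0.276). Cstb was also higher in KO on the high fat diet (0.72, 0.0161). Of 4 other cathepsins (Ctsa, Ctse, Ctsf and Ctso) limma called none for the diet in KO and 1 had an unadjusted p under 0.05, beside 19.9% of all genes. The largest difference there was that of Ctse, 1.16 with an SE of 0.72 (adjusted p = 0.403).

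In the class II pathway, in which cathepsin S acts, 3 of 7 genes rose with the diet in KO, beside 2.66% of all genes. These were H2-Aa (0.91, limma adjusted p = 0.0273) and H2-Ab1 (0.89, 0.0472), the chains of the class II molecule, and Ifi30 (0.57, 0.0351). Ifi30 was also counted among the hydrolases that rose in KO. Cd74, the invariant chain that cathepsin S cleaves, gave 0.64 (adjusted p = 0.141) in KO and -0.04 in WT. All 7 differences between KO and WT on the high fat diet were positive, beside 6114 of 11345 over all genes. Of these 7 limma called none, and 5 had an unadjusted p under 0.05, beside 14.8% of all genes.
Of 10 granule proteases listed as possible substrates of cathepsin C, 4 were tested, among them Tpsb2 and Tpsab1. Gzma, Gzmb, Elane, Prtn3 and Ctsg were not, and whether cathepsin C activates each of the 4 was not tested. For the diet limma called none of the 4 in either genotype. By limma 1 in WT and 0 in KO had an unadjusted p under 0.05, beside 23% and 19.9% of all genes. The largest diet differences were 0.79 in WT (Mcpt4, adjusted p = 0.180) and 0.71 in KO (Tpsb2, 0.443).

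Spi1, which encodes PU.1, was at the edge of the signal filter. Its values ran from 2.71 to 3.70 in KO ND, all below the filter, and from 4.65 to 5.26 in KO HFD. Its mean over the 9 arrays outside KO HFD was 3.72, also below the filter, so only the KO HFD arrays brought it into the test, and its difference is given no test here. Tfeb, which encodes TFEB and was picked out after its values were seen, had a diet difference of 0.05 in KO (limma adjusted p = 0.915) and -0.17 in WT (0.597).

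**Figure D4:**
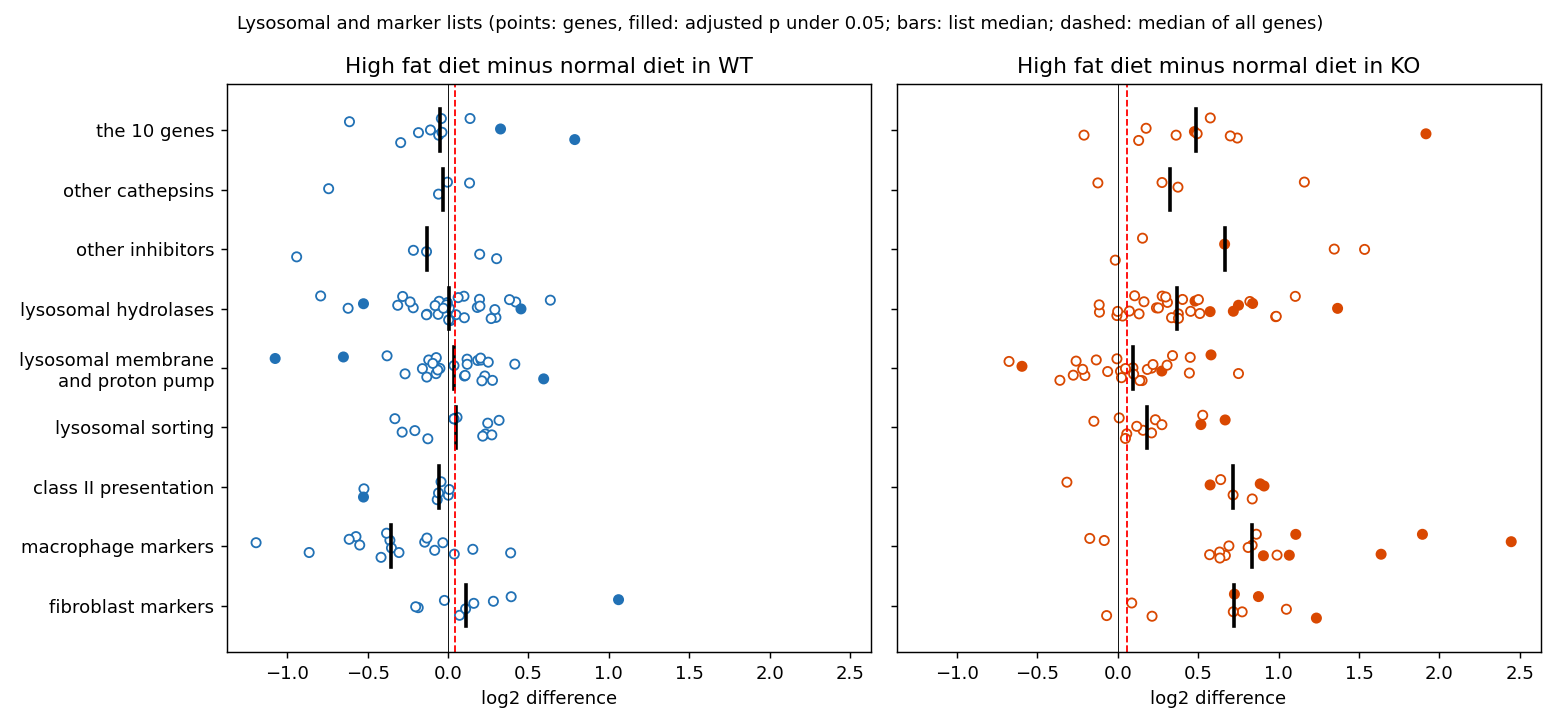
Log2 differences between the high fat and the normal diet (x axis) for each gene (points, filled where the adjusted p was under 0.05) of 9 gene lists (y axis), in WT on the left and KO on the right, with the list median as a bar and the median of all genes dashed. In KO the medians of the 10 genes (0.49), the hydrolases (0.37) and the macrophage markers (0.84) lie above the median of all genes (0.05), and in WT they are -0.05, 0.01 and -0.35.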

How the data were processed

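Muscle RNA of 12 mice was hybridised to 1-colour Affymetrix arrays with biotin label, per the labels. The values, as deposited, were log2 signals computed by the authors with MAS5, per the submitters' processing notes, in a version not given in the sources used here. They were used without further normalization. Of 45101 probe sets, those with a single gene symbol and a mean above the median of 3.78 were kept, and the brightest stood for each gene. A linear model over the 4 groups was fitted in limma 3.58.1 (R 4.3.3) with an intensity trend, with Benjamini-Hochberg adjustment of p-values in each of 7 contrasts. The script was tested on simulated data. Depth does not apply to arrays; 3 mice per group limit the precision. The members and lists were chosen with earlier results of these data known. Named genes were the 10 members, defining markers, Cd74, up to 4 called genes per list (or the largest difference), and the 5 genes most like Ctss and Ctsb, with Tfeb and Ifi30 in the knockout added after their values were seen. Alternatives were other normalizations, offsets, filters, probe set choices, moderation, array weights, a 3′ over 5′ covariate, a fit of only the groups compared, and leaving out single mice. Python 3.11.15 was used for tables (pandas 2.3.3) and plots (matplotlib 3.10.9). Where nothing says that mice were independent of a shared cage or litter, p-values measure the spread between these samples.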

Additional observations from a re-analysis of the deposited data

Results flagged for a closer look

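The diet effect on Ctss was larger in KO than in WT by 2.03 (log2, limma adjusted p = 0.00602 for the interaction), with differences of 1.92 in KO and -0.11 in WT. The same value of 2.03 is the gap between its genotype differences, which were 1.19 on the high fat diet and -0.84 on the normal diet, each without overlap of the 3 mice per group. The latter did not pass on its own (limma adjusted p = 0.0542).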

How the results depend on the processing

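The rise of Ctss with the diet in KO passed in all 23 alternatives run (1.70 to 2.03) and the interaction in 21 of 22 (1.81 to 2.14), the exception being no intensity trend (limma adjusted p = 0.0566). The second brightest probe set exists for 5 of the 10 genes, without Ctss, which by construction removes its calls. The number of the 10 genes called for the diet in WT, 2, became 1 with median centring or no filter, and 0 with the second brightest probe set, no trend or the 3′ over 5′ covariate, and ran from 0 to 3 with 1 mouse left out. For the diet in KO, 2 became 1 with median centring, no filter, the mean over probe sets, no trend or the covariate, and 0 with the second brightest probe set (1 to 3 with 1 mouse left out). For KO against WT on the normal diet, 0 became 1 with the 75th percentile filter, array weights or only the groups compared (0 to 1). On the high fat diet, 1 became 0 with the second brightest probe set or no trend (1 to 2). For the averaged diet effect, 5 became 3 with median centring, 1 with the second brightest probe set and 2 with no trend or the covariate (2 to 4). For the interaction, 1 became 0 with the second brightest probe set or no trend. The immune-cell minus ubiquitous gap with the narrow list of Ctss and Ctsc was 0.38 for the diet in WT, 1.08 in KO, 0.18 for the genotype on the high fat diet, 0.73 for the averaged diet effect and 0.53 for the interaction, against -0.04, 0.49, -0.17, 0.45 and 0.33. With the second brightest probe set it was 0.63 for the diet in WT, 0.061 for the genotype on the normal diet and -0.015 for the interaction. With 1 mouse left out the gap ran from -0.56 to -0.23 (the last without KO ND replicate 2) for the genotype on the normal diet and from 0.20 to 0.53 for the interaction, at the last value without KO ND replicate 3. Ctsl in the averaged diet effect turned to 0.10 (adjusted p = 0.890) with its second probe set. Differences near 0 that stayed below the threshold changed sign in some settings. The cause of these changes was not tested. No paired analysis was possible because the mouse numbers differ between the groups.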
